A study of Capra hircus with 6 samples.

Results

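Anti-Müllerian hormone (AMH, GeneID 102180665) and its own type II receptor (AMHR2, GeneID 102175649) were followed through the ovaries of 6 goats. They are 2 of the 17504 genes in each deposited table and were chosen by name. AMH is a secreted dimer of the TGF-beta family. In the ovary it is made by granulosa cells of growing follicles, from the primary stage to the small antral stage, and its transcript falls away as a follicle approaches dominance. It restrains the recruitment of primordial follicles and lowers the response of growing follicles to FSH. AMHR2 binds AMH and no other known ligand, and then recruits a type I receptor shared with the bone morphogenetic proteins (BMPs), which phosphorylates SMAD1, SMAD5 or SMAD9.

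The ovaries came from 3 Tibetan goats, a breed described by the submitters as non-prolific, and 3 Jintang black goats, described as prolific. Every animal (Capra hircus) was sampled during the follicular phase, the part of the oestrous cycle in which follicles grow towards ovulation. The labels name no treatment, allele or age, and do not say which region of the ovary was taken. The study asked how the ovarian transcriptomes of the breeds differ.

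Each library was 1 goat, and levels are in FPKM, a fragment count divided by transcript length and by the mapped fragments of the library. The FPKM of a library summed to 602255 to 682801, with 12617 to 13131 genes at or above 1 FPKM. Sequencing depth itself is unknown. From the spacing of low values, the libraries were estimated at between 0.925 and 1.027 times the depth of Tibetan 1. Only depths close to that of Tibetan 1 were searched, so a much lower or higher depth could not have been found. Across genes, the most similar pair of libraries was Tibetan 2 and Jintang 3, 1 of each breed (Spearman correlation 0.974 over all genes), the ovaries that were high in AMH. The labels record no batch, and the deposited column of Tibetan 2 follows another naming pattern than the other 5, with nothing to say why.

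AMH was abundant in 1 ovary of each breed and low in the other 4. Among the Tibetan ovaries it stood at 0.68, 20.7 and 0.95 FPKM in animals 1, 2 and 3, and among the Jintang ovaries at 1.40, 1.99 and 44.3 FPKM. Tibetan 2 and Jintang 3 were therefore high, the other 4 ovaries lay between 0.68 and 1.99 FPKM, and the ranges of the breeds overlapped. The highest ovary exceeded the lowest 65.2-fold, and the second highest exceeded the third 10.4-fold. In Jintang 3 the AMH level was 2.14 times that in Tibetan 2. Ranked among all genes of its own library, AMH stood at percentile 88.6 in Jintang 3 and percentile 74.9 in Tibetan 2, against percentiles 25.1 to 33.7 in the other 4 libraries. These ranks do not depend on how a library is scaled. In RNA from a mixed tissue, fewer cells of a type and less RNA per cell cannot be told apart.

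AMHR2 varied less than its ligand, and only Jintang 3 was among the 2 highest ovaries for both. It stood at 4.38, 2.67 and 6.88 FPKM in Tibetan goats 1 to 3 and at 1.87, 1.32 and 7.55 FPKM in Jintang goats 1 to 3. Jintang 3 and Tibetan 3 were highest and Jintang 1 and Jintang 2 lowest, with the breeds overlapping. The highest ovary exceeded the lowest 5.72-fold. Both genes were highest in Jintang 3, as were 8.53% of all genes tested for a breed difference. Tibetan 2, the ovary with the second highest AMH, held only 2.67 FPKM of AMHR2, and Tibetan 3, with the second highest AMHR2, had the second lowest AMH. AMH fell into a low and a high cluster, so no correlation between ligand and receptor over the 6 ovaries is given as a result.

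**Figure D1:**
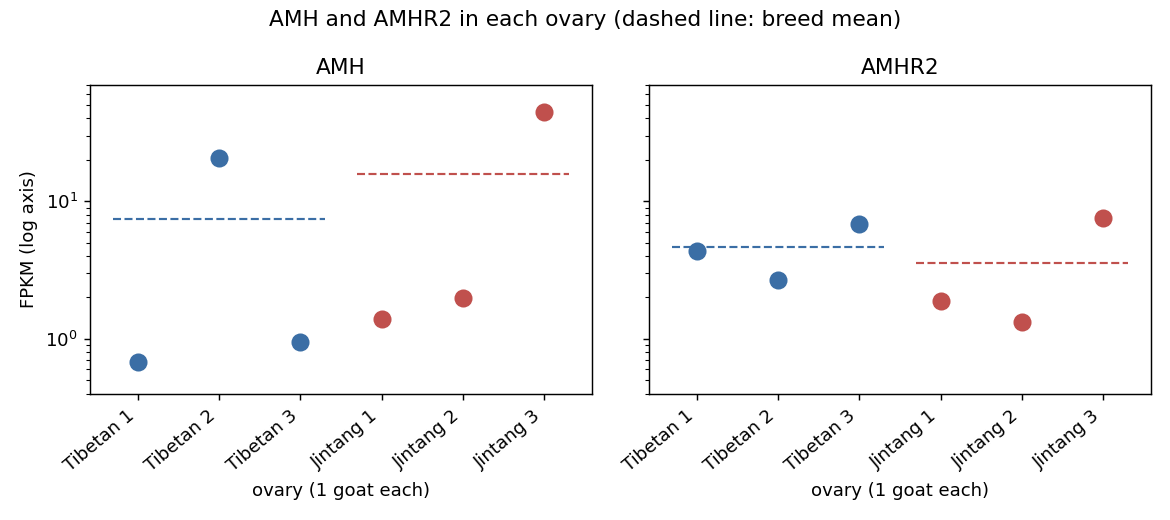
AMH (left) and AMHR2 (right) in FPKM on a shared log axis, with 1 point per ovary and a dashed line at the mean of each breed (n = 3). AMH is high in Tibetan 2 (20.7 FPKM) and Jintang 3 (44.3 FPKM) and at most 1.99 FPKM in the other 4 ovaries, so that both breed means lie between the high ovary and the low ones; AMHR2 runs from 1.32 to 7.55 FPKM.

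The balance of ligand and receptor transcripts therefore changed direction between ovaries. FPKM is a value per length of transcript, so levels of both genes can be set side by side within a library. AMH exceeded AMHR2 7.75-fold in Tibetan 2, 5.87-fold in Jintang 3 and 1.51-fold in Jintang 2. AMHR2 exceeded AMH 6.44-fold in Tibetan 1, 7.24-fold in Tibetan 3 and 1.34-fold in Jintang 1. Each breed held ovaries of both kinds. The log2 ratio of AMH to AMHR2 (1 FPKM added to each) averaged -0.38 ± 2.55 in Tibetan and 0.84 ± 1.39 in Jintang ovaries (SD, n = 3 each), a difference of 1.21 with a 2-sided exact permutation p of 0.6. With 3 ovaries against 3 the smallest p this test can give is 0.1.

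Neither gene passed the comparison of the breeds, and for both the spread between goats of 1 breed exceeded the difference between breed means. AMH averaged 7.44 ± 11.5 FPKM over the Tibetan and 15.9 ± 24.6 FPKM over the Jintang goats (SD, n = 3 each). Its fold change was 0.73 on the log2(FPKM + 1) scale (Jintang minus Tibetan, SE 1.30), with an adjusted p of 0.902 by limma and a 2-sided exact permutation p of 0.5. AMHR2 averaged 4.64 ± 2.12 FPKM over the Tibetan and 3.58 ± 3.45 FPKM over the Jintang goats (SD, n = 3 each). Its fold change was -0.48 (SE 0.54) with an adjusted p of 0.834 by limma and a 2-sided exact permutation p of 0.6. The 95% limits of the limma estimates ran from -2.25 to 3.72 for AMH and from -1.72 to 0.75 for AMHR2. For AMH, differences of several fold in either direction are therefore not excluded by these animals. The pseudocount of 1 FPKM understates fold changes of genes this low.

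Over the whole table, limma called 0 of 13067 genes (0%) higher and 0 (0%) lower in Jintang ovaries after adjustment. Before adjustment, 368 genes (2.82%) were higher and 438 (3.35%) lower with p under 0.05, and neither AMH nor AMHR2 was among them. The median fold change of all tested genes was -0.10 on the log2 scale. It became 0.02 with median-ratio scaling, which turned the unadjusted split into 456 higher and 308 lower. Without that scaling, log2 fold changes were positive in 41.0% of all 13067 tested genes.

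The sign of the AMH difference rested on Jintang 3. Without this ovary the AMH log2 fold change was -0.63 (SE 1.05, limma adjusted p = 0.804). Without Tibetan 2, the other ovary high in AMH, it was 1.93 (SE 1.23, limma adjusted p = 0.797). It was 0.08 without Tibetan 1 and 0.19 without Tibetan 3, the ovaries with the lowest AMH. The AMHR2 difference was negative with each ovary left out, from -0.12 without Jintang 2 to -1.06 without Jintang 3. In the latter fit the unadjusted limma p was 0.0372 and the adjusted p 0.323.

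**Figure D2:**
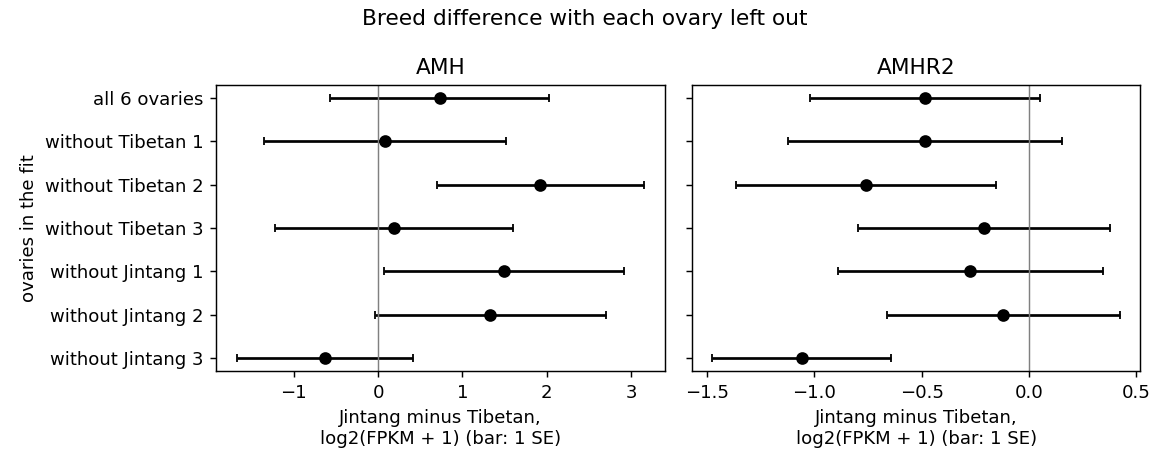
Breed difference (Jintang minus Tibetan, log2(FPKM + 1)) of AMH (left) and AMHR2 (right) with all 6 ovaries and with each ovary left out; points are limma estimates and bars 1 SE. The AMH estimate runs from -0.63 without Jintang 3 to 1.93 without Tibetan 2, while that of AMHR2 stays below 0, between -1.06 and -0.12.

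In the reference annotation AMH lies between JSRP1 and SF3A2, a gene order that matters because no source used here gives the strand of the libraries and fragments running past the end of a neighbour could be counted for AMH. SF3A2, a splicing factor subunit made in most cells, was at 29.4, 33.6 and 23.8 FPKM across the Tibetan goats, against 18.8, 20.8 and 21.5 FPKM across the Jintang goats. SF3A2 was highest in Tibetan 2, an ovary high in AMH. It was at 20.8 FPKM in Jintang 2 and 21.5 FPKM in Jintang 3, where AMH was at 1.99 and 44.3 FPKM. JSRP1, a muscle gene, was at 0, 0.26 and 0.14 FPKM across the Tibetan goats, against 0, 0 and 0.72 FPKM across the Jintang goats. Its values were far below those of AMH, but its 2 highest ovaries were the same. The share of such fragments in the values of these genes was not tested. No gene of the reference table overlapped AMH or AMHR2.

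AMHR2 was among the less abundant type II receptors of its family. The other 4 are ACVR2A and ACVR2B, which bind activins, BMPR2, which binds BMPs, and TGFBR2, the receptor for TGF-beta. TGFBR2 was the most abundant of the 5 in every ovary, between 60.3 and 122 FPKM. AMHR2 held rank 2 of the 5 in Tibetan 3, rank 3 in Jintang 3, rank 4 in Tibetan 1 and Tibetan 2, and rank 5 in Jintang 1 and Jintang 2. ACVR2A stood at 8.72, 7.21 and 6.50 FPKM in Tibetan goats 1 to 3 and 5.19, 4.28 and 6.03 FPKM in Jintang goats 1 to 3. ACVR2B ran from 1.57 to 4.18 FPKM and overlapped between the breeds. BMPR2 stood at 4.46, 5.12 and 5.92 FPKM in Tibetan goats 1 to 3 and 7.49, 10.5 and 7.73 FPKM in Jintang goats 1 to 3. BMPR2 and TGFBR2 were higher in every Jintang ovary than in any Tibetan ovary, and ACVR2A was lower, orders seen in 3.20% and 6.70% of all tested genes. None of the 4 passed (2 positive and 2 negative log2 fold changes, median 0.20 against -0.10 for all genes). From the lowest to the highest ovary TGFBR2 spanned 2.03-fold, ACVR2A 2.04-fold, BMPR2 2.35-fold and ACVR2B 2.66-fold, against 5.72-fold for AMHR2.

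**Figure D3:**
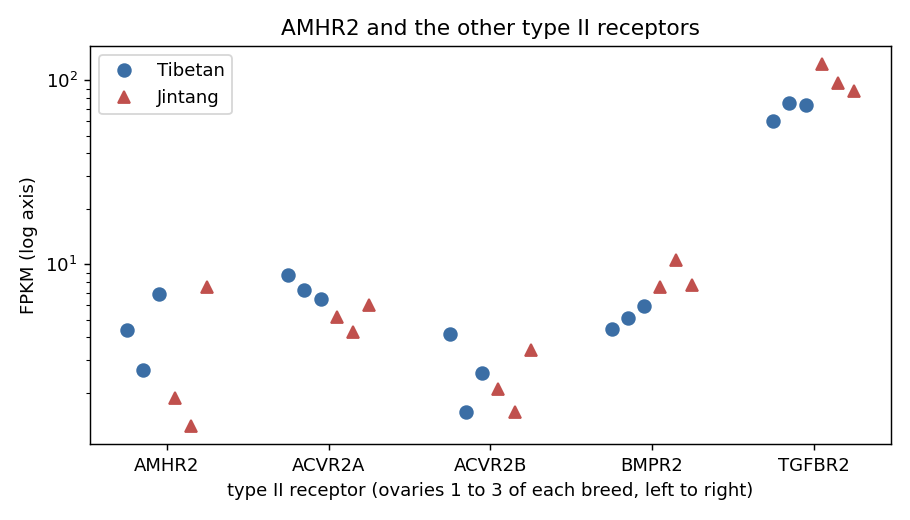
FPKM on a log axis of AMHR2 and the 4 other type II receptors of the family; circles are Tibetan and triangles Jintang ovaries, 1 point per ovary in the order 1 to 3 from left to right. TGFBR2 lies highest, between 60.3 and 122 FPKM, and AMHR2 runs from 1.32 FPKM in Jintang 2 to 7.55 FPKM in Jintang 3.

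The type I receptors that can pair with AMHR2 were all detected in each ovary. ACVR1, also called ALK2, ran from 15.0 to 38.3 FPKM. BMPR1A (ALK3), regarded as the main partner in the female tract, stood at 34.4, 30.0 and 20.3 FPKM in Tibetan goats 1 to 3 and at 11.8, 9.47 and 25.9 FPKM in Jintang goats 1 to 3. Its lowest ovaries, Jintang 1 and Jintang 2, were also those lowest in AMHR2. Of all tested genes, 22.3% had these same ovaries as their 2 lowest. BMPR1B (ALK6), in which a sheep variant raises litter size, stood at 8.86, 16.3 and 6.04 FPKM across the Tibetan goats, against 42.7, 24.9 and 23.5 FPKM across the Jintang goats. BMPR1B was higher in all 3 Jintang ovaries than in all 3 Tibetan ovaries, an order seen in 3.20% of all tested genes. Its log2 fold change was 1.51 (SE 0.40), but it did not pass (limma adjusted p = 0.743). The 3 receptors gave 1 positive and 2 negative log2 fold changes (median -0.28), and 0 of 3 passed.

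Downstream of the receptors, SMAD7 spanned 21.4-fold from the lowest to the highest ovary, and each other SMAD gene at most 2.79-fold. SMAD1 ran from 12.6 to 22.0 FPKM, SMAD5 from 10.1 to 20.6 FPKM and SMAD9 from 6.83 to 11.4 FPKM, and all overlapped between the breeds. SMAD4, the common partner of the phosphorylated SMADs, ran from 13.1 to 20.0 FPKM. Its 2 lowest ovaries were again Jintang 1 and Jintang 2. Its 2 highest were those of AMH, as in 10.4% of all tested genes, with Tibetan 3 close behind at 19.5 FPKM. SMAD6, an inhibitor of BMP-type signals, did not exceed 1.73 FPKM. Its 2 highest ovaries were those of AMHR2, as in 3.56% of all tested genes. SMAD7, an inhibitor of the wider family, stood at 1.97, 7.36 and 8.93 FPKM in Tibetan goats 1 to 3 and 42.2, 16.8 and 7.20 FPKM in Jintang goats 1 to 3. The SMAD7 groups overlapped, and its log2 fold change of 1.56 (SE 0.66) had an adjusted p of 0.743 by limma. None of the 6 SMAD genes passed.

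The ID genes, direct targets of BMP-type SMADs that can be induced by AMH, were not highest in the ovary with most AMH. ID1 stood at 40.7, 95.4 and 93.7 FPKM in Tibetan goats 1 to 3 and 44.0, 48.6 and 63.5 FPKM in Jintang goats 1 to 3. ID2 stood at 75.5, 120 and 39.0 FPKM across the Tibetan goats, against 54.8, 88.8 and 72.8 FPKM across the Jintang goats. ID3 stood at 91.1, 137 and 176 FPKM in Tibetan goats 1 to 3 and 98.8, 85.5 and 133 FPKM in Jintang goats 1 to 3. Tibetan 2 was highest for ID1 and ID2 and Tibetan 3 for ID3, while Jintang 3, the ovary highest in both AMH and AMHR2, was highest for none of them. The 3 genes measured of 4 gave a median log2 fold change of -0.32, and 0 passed. ID2 differed by less than 0.01 between the breeds and turned positive with median-ratio scaling.

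AMH is made as a precursor and becomes active on cleavage by proprotein convertases. FURIN stood at 27.5, 19.1 and 37.2 FPKM in Tibetan goats 1 to 3 and 56.3, 65.0 and 30.1 FPKM in Jintang goats 1 to 3. PCSK5, a convertase able to cleave AMH, stood at 4.31, 5.61 and 8.97 FPKM across the Tibetan goats, against 10.03, 32.2 and 7.69 FPKM across the Jintang goats. PCSK6 ran from 1.23 to 5.45 FPKM and PCSK7 from 8.05 to 33.6 FPKM. Jintang 2 was highest for FURIN, PCSK5 and PCSK7, and Jintang 3 for PCSK6. Log2 fold changes were positive for 4 of 4 (median 0.59), against 41.0% of all tested genes. All 4 were also positive under both other scalings, for which the share over all genes is not given. Of the 4, 0 passed. All 4 overlapped between the breeds. The summed level of the luteal markers was also highest in Jintang 2 (23998 FPKM, against 388 to 6510.2 FPKM in the other 5 ovaries), and its part in these values was not tested.

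**Figure D4:**
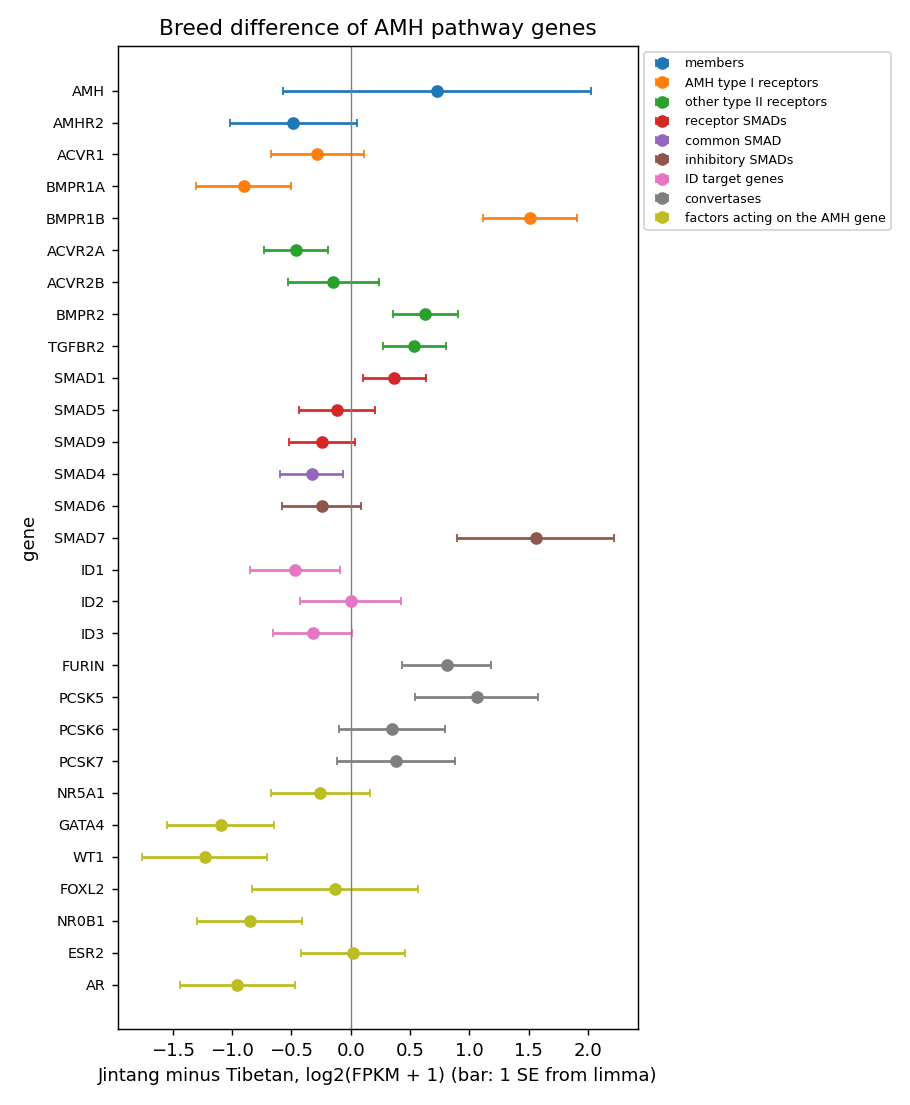
Breed difference (Jintang minus Tibetan, log2(FPKM + 1)) of AMH, AMHR2 and the genes of their pathway that were tested, coloured by role; points are limma estimates and bars 1 SE. AMH has a wide bar (0.73, SE 1.30), BMPR1B (1.51) and SMAD7 (1.56) lie farthest to the right, GATA4 (-1.10) and WT1 (-1.23) farthest to the left, and none passed the test.

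Transcription factors known to act on the AMH gene were measured for 8 of 10 list members. GATA4 stood at 119, 50.2 and 123 FPKM in Tibetan goats 1 to 3 and 31.7, 32.7 and 69.8 FPKM in Jintang goats 1 to 3. WT1 stood at 53.5, 34.9 and 21.9 FPKM in Tibetan goats 1 to 3 and 11.5, 7.47 and 31.7 FPKM in Jintang goats 1 to 3. NR5A1, also called SF-1, stood at 29.3, 19.3 and 62.6 FPKM across the Tibetan goats, against 22.9, 27.6 and 32.7 FPKM across the Jintang goats. FOXL2, which maintains granulosa identity, was highest in Tibetan 1 (16.0 FPKM), where AMH was lowest, followed by Jintang 3 (10.8 FPKM). It was at 4.50 FPKM in Tibetan 2. Of the 8, 7 were tested: 1 had a positive and 6 a negative log2 fold change (median -0.85), and 0 passed. The ovaries highest in AMH were the 2 highest for 0 of these 7, a count too small to set apart from the 10.4% of all tested genes. Those highest in AMHR2, Tibetan 3 and Jintang 3, were the 2 highest for 2 of 7 (NR5A1 and ESR2), against 3.56%. Jintang 1 and Jintang 2, the ovaries lowest in AMHR2, were the 2 lowest for 4 of 7, against 22.3%. GATA4 had a log2 fold change of -1.10 (SE 0.45) and WT1 one of -1.23 (SE 0.53), each with an adjusted p of 0.743 by limma. SOX8 did not reach the filter, with at most 0.50 FPKM.

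Of 13 oocyte markers measured, 11 had Tibetan 2 and Jintang 3 as their 2 highest ovaries, as AMH did. The same held for 9.84% of all genes above 0 in any library. These 2 ovaries were also the most similar pair over all genes, and whether they held more growing follicles was not tested. The zona pellucida gene ZP3, which encodes a protein of the egg coat, stood at 0.13, 7.24 and 0.84 FPKM in Tibetan goats 1 to 3 and 3.57, 2.21 and 10.5 FPKM in Jintang goats 1 to 3. ZP4 stood at 0, 4.31 and 0.60 FPKM in Tibetan goats 1 to 3 and 1.00, 0.83 and 4.88 FPKM in Jintang goats 1 to 3. ZP2 stood at 0.28, 3.72 and 0.44 FPKM across the Tibetan goats, against 1.15, 0.21 and 3.23 FPKM across the Jintang goats. In all 3 zona genes Tibetan 2 and Jintang 3 lay above the other 4 ovaries.

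The oocyte growth factor BMP15 was at most 0.26 FPKM except in Jintang 3 (1.73 FPKM). GDF9, its partner, stood at 0.44, 3.42 and 2.5 FPKM in Tibetan goats 1 to 3 and 0.91, 0.52 and 2.28 FPKM in Jintang goats 1 to 3. GDF9 was thus high in Tibetan 3 too, where AMH was at 0.95 FPKM. FIGLA, the regulator of zona genes, was above 0 in Tibetan 2 only (0.80 FPKM). Summed over the 13 markers, the level was 26.0 FPKM in Tibetan 2 and 27.8 FPKM in Jintang 3, against 0.96 FPKM in Tibetan 1, 4.89 in Tibetan 3, 7.88 in Jintang 1 and 5.49 in Jintang 2. In Tibetan 1, 8 of the 13 were listed at 0. No marker was at 0 in all 6 ovaries. The sums of the breeds overlapped. Only 4 of the 13 passed the filter on low values, and 0 of the 4 passed the test. The others rest on low values, and the number of fragments behind them is unknown.

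Of 13 granulosa markers tested, 1 (HSD17B1) had the 2 highest ovaries of AMH, a share near the 10.4% of all tested genes. HSD17B1, which converts oestrone to oestradiol, stood at 0.66, 22.4 and 0.55 FPKM in Tibetan goats 1 to 3 and 0.82, 4.13 and 23.8 FPKM in Jintang goats 1 to 3. The hedgehog ligand IHH, a granulosa product that signals to theca cells, stood at 0, 2.15 and 0 FPKM across the Tibetan goats, against 0.68, 0.48 and 6.0 FPKM across the Jintang goats. HSD17B1 and IHH were the only 2 of 14 granulosa markers whose 2 highest ovaries were those of AMH. IHH did not reach the filter. The FSH receptor FSHR was highest in Jintang 3 (10.7 FPKM), followed by Jintang 1 (5.94 FPKM) and Tibetan 2 (5.66 FPKM), and was listed at 0 in Tibetan 1.

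INHA and CYP19A1, granulosa markers picked here after their values were seen, were highest in Tibetan 3, as was INHBB. Elsewhere in the list, FSHR, FST, HSD17B1 and IHH peaked in Jintang 3, and INHBA, SERPINE2 and DHH in Jintang 1. KITLG and NR5A2 peaked in Jintang 2, GATM in Tibetan 2 and FOXL2 in Tibetan 1. INHA, the inhibin alpha subunit, reached 1194 FPKM in Tibetan 3, followed by 198 FPKM in Tibetan 2 and 144 FPKM in Jintang 3. As a share of the INHA level, AMH amounted to 1.32%, 10.4% and 0.0796% in Tibetan 1, 2 and 3, and to 14.6%, 1.504% and 30.8% in Jintang 1, 2 and 3. The share was highest in Jintang 3, but that of Jintang 1, an ovary low in AMH and lowest in INHA, exceeded that of Tibetan 2. CYP19A1, the aromatase of oestradiol-producing follicles, was at 15.6 FPKM in Tibetan 3, ahead of Tibetan 2 (7.34 FPKM), and reached only 0.94 FPKM in Jintang 3. Tibetan 3 thus combined the highest INHA and CYP19A1 with the second lowest AMH. Over the granulosa list 7 of 13 log2 fold changes were positive (median 0.33), 0 passed, and the summed level ran from 379 to 1490 FPKM across Tibetan and from 509 to 658 FPKM across Jintang goats.

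Of 6 theca markers measured, 2 (GLI1 and PTCH1) had the 2 highest ovaries of AMH, against 9.84% of all genes above 0 in any library. GLI1, a transcriptional target of hedgehog signalling, stood at 1.10, 5.93 and 2.74 FPKM in Tibetan goats 1 to 3 and 0.76, 0.76 and 7.41 FPKM in Jintang goats 1 to 3. PTCH1, the receptor and another target, stood at 5.68, 9.46 and 3.47 FPKM in Tibetan goats 1 to 3 and 3.56, 2.33 and 9.69 FPKM in Jintang goats 1 to 3. HHIP, a decoy receptor of the pathway, was highest in Tibetan 3 (2.15 FPKM), then in Tibetan 2 (1.71 FPKM) and Jintang 3 (0.83 FPKM). CYP17A1, which makes androgens in theca cells, was instead highest in Tibetan 3 (719 FPKM), with 152 FPKM in Tibetan 2 and 103 FPKM in Jintang 3 next. Jintang 1 and Jintang 2 held 1.99 and 4.24 FPKM. Of the 5 tested, 1 had a positive and 4 a negative log2 fold change (median -0.35), and 0 passed.

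**Figure D5:**
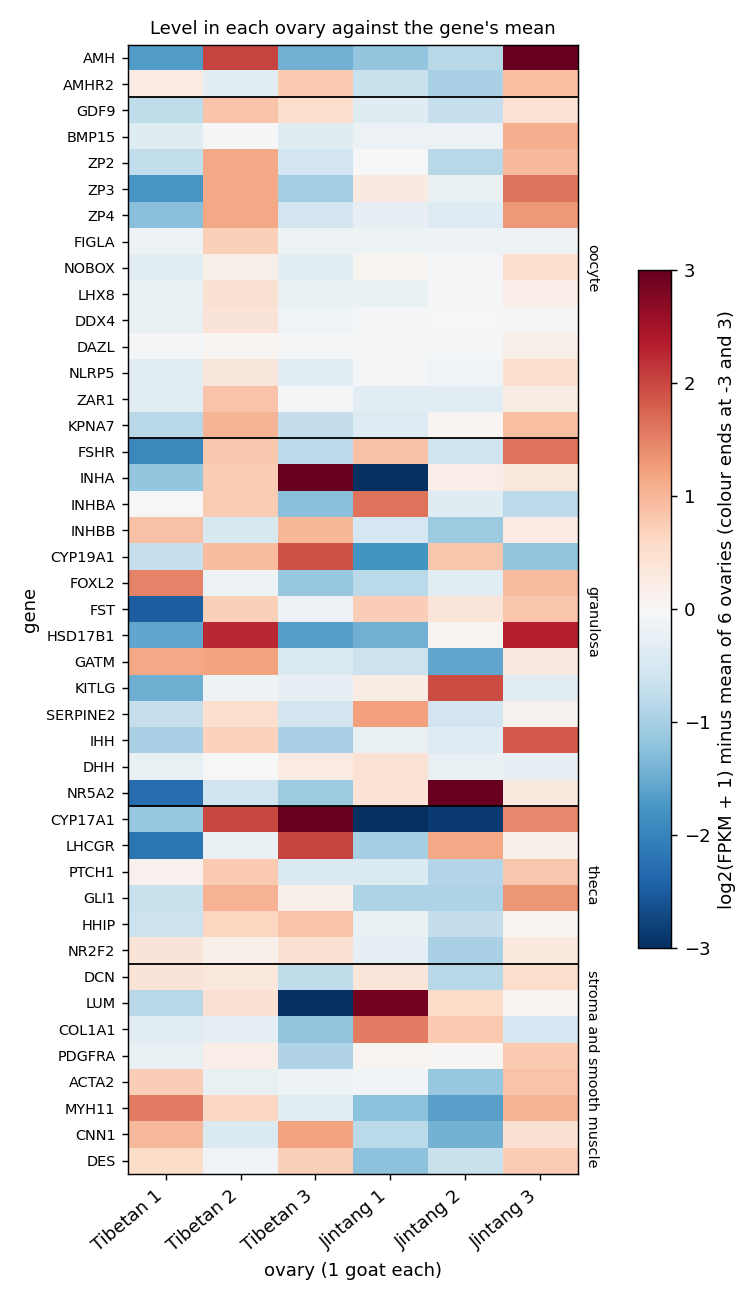
Level of AMH, AMHR2 and the measured oocyte, granulosa, theca, and stroma and smooth muscle markers in each ovary (columns), as log2(FPKM + 1) minus the mean of the gene over the 6 ovaries; red is above and blue below that mean, with colours ending at -3 and 3. Red in both Tibetan 2 and Jintang 3 marks AMH, HSD17B1 and the zona genes, whereas INHA and CYP17A1 are reddest in Tibetan 3.

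AMHR2 is also made outside granulosa cells, in mesenchyme and surface epithelium of the reproductive tract. Among the stroma and smooth muscle markers, DES (desmin) stood at 199, 126 and 221 FPKM across the Tibetan goats, against 56.6, 84.3 and 228 FPKM across the Jintang goats. CNN1 (calponin) stood at 346, 130 and 407 FPKM in Tibetan goats 1 to 3 and 99.6, 64.6 and 242 FPKM in Jintang goats 1 to 3. LUM and COL1A1 were instead highest in Jintang 1, and MYH11 in Tibetan 1. DCN, ACTA2 and PDGFRA were highest in Jintang 3, and PDGFRA had the 2 highest ovaries of AMH. DES had the same 2 highest ovaries as AMHR2, Tibetan 3 and Jintang 3, as did 3.56% of all tested genes. It was the only 1 of 8 markers of this list to do so. For 3 of the 8, Jintang 1 and Jintang 2 were the 2 lowest ovaries, against 22.3% of all tested genes. The summed level of the list ran from 3806.3 to 7144.6 FPKM across Tibetan and from 3673.6 to 7259.9 FPKM across Jintang goats. The sums of Jintang 1 (7259.9 FPKM), Tibetan 1 (7144.6 FPKM) and Jintang 3 (7141.7 FPKM) lay close together. AMHR2 was second lowest in Jintang 1 and highest in Jintang 3. The 8 gave 4 positive and 4 negative log2 fold changes, and 0 passed. The part of these cells in the AMHR2 level was not tested. Of the 6 epithelial and mesothelial markers measured, 1 had the 2 highest ovaries of AMHR2. This was LRRN4, which did not reach the filter, at 0.16, 0.39 and 1.95 FPKM across the Tibetan goats, against 0, 0.08 and 0.61 FPKM across the Jintang goats. MSLN (mesothelin) reached 54.5 FPKM in Tibetan 3 but only 3.57 FPKM in Jintang 3. None of the 4 tested members passed the breed comparison, with 2 positive and 2 negative log2 fold changes.

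The summed levels of luteal, endothelial and macrophage markers were each highest in Jintang 1 or Jintang 2, where AMH was low. Single markers departed from this: KDR, an endothelial receptor, was highest in Tibetan 2 (54.3 FPKM), and LHCGR, the receptor for LH, in Tibetan 3 (53.4 FPKM). Luteal markers summed to 388 to 3051.9 FPKM across Tibetan and 560 to 23998 FPKM across Jintang goats, with the 3 lowest sums in Tibetan 1, Jintang 3 and Tibetan 2. TIMP1 alone was at 5303.8 FPKM in Jintang 1, where the luteal sum was 6510.2 FPKM. The prostaglandin receptor PTGFR, which starts luteal regression, had its highest values in the ovaries lowest in AMHR2 (274 and 259 FPKM) and did not exceed 32.3 FPKM in the others. Endothelial markers summed to 334 and 277 FPKM in these ovaries and to between 123 and 217 FPKM in the other 4. Macrophage markers summed to 375 FPKM in Jintang 1, to 102 and 94.6 FPKM in Jintang 3 and Tibetan 2, and to at most 52.1 FPKM elsewhere. Their part in the AMH and AMHR2 values was not tested. Log2 fold changes were positive for 8 of 8 luteal markers, 4 of 5 endothelial markers (5 of 5 with median-ratio scaling) and 4 of 4 macrophage markers. The share over all tested genes was 41.0% without that scaling, and 0 passed in each list. No tested gene of these lists had the 2 highest ovaries of AMH, a count too small to set apart from the 10.4% of all tested genes.

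The genes most like AMH over the 6 ovaries were sought among 7391 tested genes with a symbol that spanned at least 1 on the log2(FPKM + 1) scale. Likeness was Pearson's r over the 6 libraries, given as a description: with 2 ovaries far above 4, it mainly measures whether a gene is high in the same pair. The 8 nearest were TENM1 (r = 0.992), CXCL10 (0.988), SKAP1 (0.985), CNKSR2 (0.984), MCTP2 (0.982), MKX (0.979), EEF1A2 (0.973) and DAPL1 (0.970), and 58 genes exceeded 0.9. CXCL10, an interferon-induced chemokine, stood at 8.52, 31.6 and 12.0 FPKM in Tibetan goats 1 to 3 and 12.2, 14.2 and 55.5 FPKM in Jintang goats 1 to 3. SKAP1, an adaptor of T-cell receptor signalling, stood at 2.89, 8.95 and 3.15 FPKM across the Tibetan goats, against 2.88, 3.36 and 9.47 FPKM across the Jintang goats. MKX, a homeobox gene of tendon and other connective tissue, was at 15.9 and 24.0 FPKM in the ovaries high in AMH and did not exceed 5.55 FPKM in the others. EEF1A2, a translation elongation factor, was at 8.79 and 18.0 FPKM in these ovaries and at most 1.00 FPKM elsewhere. Which cells made the transcripts of these 8 genes was not tested.

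The 8 genes most like AMHR2 were ENHO (r = 0.971), TMEM42 (0.969), MPZL2 (0.963), HOXB2 (0.959), DUSP15 (0.959), SATB1 (0.955), SRL (0.948) and RNF182 (0.945), and 51 genes exceeded 0.9. ENHO, which encodes the peptide adropin, stood at 17.0, 9.80 and 24.4 FPKM in Tibetan goats 1 to 3 and 5.21, 4.74 and 20.0 FPKM in Jintang goats 1 to 3. HOXB2, a homeobox gene, stood at 3.76, 2.51 and 8.35 FPKM in Tibetan goats 1 to 3 and 2.88, 1.56 and 9.42 FPKM in Jintang goats 1 to 3. SATB1, a chromatin organiser, stood at 9.65, 9.38 and 12.5 FPKM across the Tibetan goats, against 5.94, 4.20 and 14.4 FPKM across the Jintang goats. In 7 of these 8 genes, all but SRL, Tibetan 3 and Jintang 3 were the 2 highest ovaries, against 3.56% of all tested genes. The 8 were picked for likeness to AMHR2 over these same ovaries, so this count follows from the choice and is no separate result. No gene stood in both lists of 8. The complete order of the 6 ovaries was that of AMH in 11 other tested genes (0.0842%) and that of AMHR2 in 10 others (0.0765%).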

How the data were processed

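The authors deposited 1 table per goat with FPKM for 17504 genes. Per the labels' protocols, RNA was extracted with TRIzol and made into libraries with an NEBNext kit. The submitters' processing notes name RSEM 1.2.0, TopHat2 2.0.10 and Bowtie2 2.1.0 and give no roles. No coordinates are printed, since the genome build was not given in the sources used here, nor were read length and strand. A deposited table of the whole series repeated the same 6 columns and was not used.

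GeneIDs were matched to symbols of the RefSeq table of ARS1.2 (16457 by GeneID, 9 by transcript accession, 1038 unmatched). CYP17A1 and CYP11A1 were found through synonyms, and 3BHSD was taken for HSD3B1. Of 104 list entries 92 matched.

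Breeds were compared with limma 3.58.1 (R 4.3.3; eBayes with trend) on log2(FPKM + 1). Breed was the sole factor, and genes needed 1 FPKM or more in 3 or more libraries, with Benjamini-Hochberg adjustment, a threshold of 0.05 and 2-sided tests. Named genes are AMH, AMHR2, members of the lists (receptors, SMADs, ID genes, convertases, factors acting on AMH, cell type markers) and the 8 genes with the highest Pearson r with each. Members and lists were chosen with earlier results of these data known. The fit was tried on simulated data with 13067 genes and 3 against 3 libraries. It recovered 8% of 50 genes changed by 1 on the log2 scale, 62% at 2, 82% at 3 and 94% at 4, with 4 false calls. The changed genes were drawn from those with a mean above 2 on the log2(FPKM + 1) scale, each with its own spread. These rates are averages over such genes and do not give the rate for AMH, whose SE was 1.30. Alternatives were other pseudocounts, filters, scalings and variance settings, the replicate number as a block, and leaving out each library. Tables and figures were made in Python 3.11.15 (numpy 2.4.6, pandas 2.3.3, matplotlib 3.10.9).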

Additional observations from a re-analysis of the deposited data

How the results depend on the processing

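AMH kept a positive and AMHR2 a negative breed difference, neither past the threshold, under pseudocounts of 0.1 and 0.01, no filter, median-ratio scaling, scaling to a common sum, no variance trend and robust variances. With a filter of 5 FPKM in 3 libraries neither gene was tested. With a library left out, AMH ran from -0.63 (without Jintang 3, the only reversal) to 1.93, AMHR2 from -1.06 to -0.12, and the log2 ratio of AMH to AMHR2 from 0.40 to 2.68. Genes called higher ran from 0 to 13, the latter without Jintang 3, and genes called lower stayed at 0; the cause was not tested. Titles number the goats 1 to 3 in both breeds, and the labels do not say whether the numbers pair them. Deviations of same-numbered goats from their breed mean correlated at -0.02, -0.21 and -0.47. With 3 goats per breed such deviations depend on each other, so these values cannot settle whether goats were paired. With the replicate number as a block, AMH was 0.73 (limma adjusted p = 0.964) and AMHR2 -0.48 (limma adjusted p = 0.952), with 0 genes called. The fragments behind each AMH value are unknown, so no counting error is given.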
